A study of Mus musculus with 16 samples.

Results

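Livers of old male mice that had received metformin every other week (EOW) were set directly against livers of mice that had received it for 2 consecutive weeks of each month (2WM), without the mice kept on standard diet. The mice were C57BL/6 males bought at 104 weeks of age and given about a month on the AIN-93G standard diet, after which metformin was added to that diet at 1% by weight in the weeks on drug. RNA was taken after 17 weeks of treatment from mice that were not fasted, and per the methods both regimens were in a metformin week at that time, so that the 2 groups shared drug, dose, diet, strain and sex and differed in the schedule. There were 5 EOW mice on 6 Illumina BeadArrays and 4 2WM mice on 5, since 1 mouse of each group was hybridised a second time; that pair of arrays correlated at 0.995 across probes in EOW and 0.995 in 2WM and was averaged as 1 mouse. A legend of the study gives fewer EOW mice for the arrays than the labels do and does not name the mouse left out, so every labelled mouse entered here. Of the series' 13 mice and 16 arrays this made 9 mice and 11 arrays. A probe entered the comparison where its signal exceeded the array's background beads at a detection p-value under 0.05 on every array of at least 1 of the groups, which held for 10814 of 25697 probes and 7624 named genes.

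Metformin is a biguanide that liver cells take up through organic cation transporters. It inhibits respiratory complex I, activates the AMP-activated protein kinase (AMPK) and lowers glucose output by the liver. The liver is also the main site of fatty acid and cholesterol synthesis, makes most plasma proteins, and has a strong daily rhythm and, in rodents, marked differences between the sexes that follow the pulses of growth hormone.

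A level is the log2 signal relative to the mean of its array, scaled so that each array has the mean spread of the arrays. A difference is EOW minus 2WM on that log2 scale. Median signal per array was 127.2 to 164.5 in EOW and 161.5 to 178.1 in 2WM, while the number of detected probes was 11457 to 12791 in EOW and 11541 to 12347 in 2WM. Of 10 hepatocyte markers listed, 9 were on the array and 7 were tested. The tissue carried the marks of liver, since 6 of these 7 (Apoa1, Ttr, Cps1, Hnf4a, Cyp2e1 and Serpina1c) stood at 3.92 or above in every mouse. The remaining marker did not reach that level in every mouse. The median of the 7 lay between 6.00 and 6.82 in EOW and between 6.28 and 6.65 in 2WM. EOW mouse 4 stood apart: its array correlated at 0.845 to 0.885 with those of the other 8 mice, which correlated at 0.952 to 0.991 among themselves, and 118 probes lay more than 3 log2 units below and 23 more than 3 above the mean of the others. Of the 112 genes named by rule, 10 moved by more than 1.5 times when it was left out and 19 on leaving out any 1 mouse, and such values are given beside the differences below. Nothing in the labels gives a hybridisation batch, and the time of day of tissue collection was not given in the sources used here.

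No probe passed an adjusted p of 0.05 in limma (0%, smallest adjusted p = 0.272), with EOW mouse 4 or without it (smallest 0.167). At an unadjusted p under 0.05, 1080 probes differed, of which 510 were higher in EOW (4.72% of those tested) and 570 lower (5.27%). Every EOW mouse lay above every 2WM mouse on 219 probes (2.03%) and below on 217 (2.01%). By a z test per transcript at p under 0.05, a false discovery rate under 0.30 and a z-ratio beyond 1.5, as in the methods but without their further ANOVA condition, 492 probes were counted, 189 higher in EOW and 303 lower. That z test used a normal distribution with a standard error estimated from 5 and 4 mice. Its p and false discovery rate are therefore too small, and the 492 are no controlled count. In limma, 3 probes had an adjusted p under 0.30. The same shares over named genes were 5.12% higher and 5.23% lower at an unadjusted p under 0.05, and 2.14% above and 1.94% below with no overlap. Counts in gene lists are to be read against these shares, and no single gene below differed between the regimens by the adjusted test. The probes were nearly centred, with a median difference of 0.00368, and 53.4% of named genes had a positive difference.

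**Figure D1:**
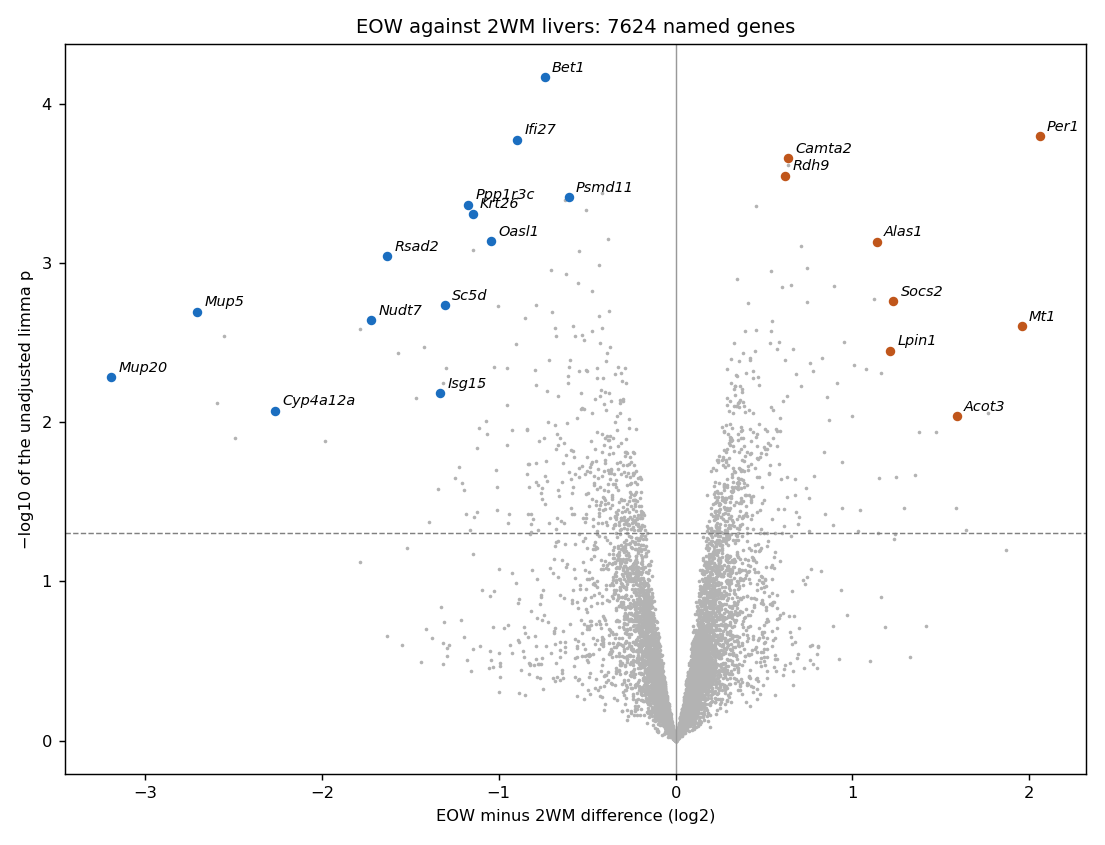
Difference between EOW and 2WM livers (x axis, log2 units) against the minus log10 of the unadjusted limma p (y axis) for the 7624 named genes, with the dashed line at an unadjusted p of 0.05. Coloured points are genes named in the text; Per1 lies far to the right at 2.06, and the major urinary protein genes far to the left at up to -3.19, while Bet1 and Camta2 stand high with differences under 1.

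Genes that interferon induces were lower in EOW. These antiviral and antigen-processing genes are switched on when type I or type II interferon activates STAT and IRF transcription factors. Of 29 tested, 27 were lower in EOW, 15 of them at an unadjusted p under 0.05, against 5.23% of all named genes, and none was higher at that threshold. The median difference of the list was -0.41, and its median level was 0.44 to 2.30 in EOW mice against 1.75 to 2.67 in 2WM mice. The count of 15 became 21 without EOW mouse 4, 8 without EOW mouse 3, and 7 without 2WM mouse 1 or without 2WM mouse 2.

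Promoters of members of this list are shown because many of them carry the same letters. The windows run from 250 bases before to 50 bases after the start of transcription, are credited to RefSeq on GRCm38.p6, and are read 5′ to 3′ on the strand of the gene. Capitals mark the core of the interferon-stimulated response element, a pair of GAAA runs 2 bases of any kind apart (GAAA NN GAAA), searched on both strands; this motif was added after the values of these genes had been seen, and Isg15 and Ifit3 were chosen for printing in the same way.

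Rsad2 promoter, chr12:26456403-26456702, reverse strand: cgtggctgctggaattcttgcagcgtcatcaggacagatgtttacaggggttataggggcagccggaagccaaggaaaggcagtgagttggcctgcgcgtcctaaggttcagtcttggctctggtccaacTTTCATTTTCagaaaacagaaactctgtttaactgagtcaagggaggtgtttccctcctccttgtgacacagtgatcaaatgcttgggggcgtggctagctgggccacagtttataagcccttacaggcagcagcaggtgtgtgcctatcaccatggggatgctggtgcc

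Isg15 promoter, chr4:156200769-156201068, reverse strand: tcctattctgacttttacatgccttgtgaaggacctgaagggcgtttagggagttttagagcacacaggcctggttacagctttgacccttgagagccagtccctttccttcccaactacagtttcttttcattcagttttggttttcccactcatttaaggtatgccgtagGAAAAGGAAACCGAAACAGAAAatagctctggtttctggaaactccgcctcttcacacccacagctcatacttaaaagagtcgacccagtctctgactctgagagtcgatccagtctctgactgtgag

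Ifit3 promoter, chr19:34583279-34583578, forward strand: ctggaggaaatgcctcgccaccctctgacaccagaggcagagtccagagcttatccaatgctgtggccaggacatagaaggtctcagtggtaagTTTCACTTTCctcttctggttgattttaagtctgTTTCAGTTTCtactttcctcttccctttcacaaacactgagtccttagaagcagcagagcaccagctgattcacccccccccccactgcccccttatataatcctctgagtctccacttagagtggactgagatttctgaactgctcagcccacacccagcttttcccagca

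Bst2 promoter, chr8:71537423-71537722, reverse strand: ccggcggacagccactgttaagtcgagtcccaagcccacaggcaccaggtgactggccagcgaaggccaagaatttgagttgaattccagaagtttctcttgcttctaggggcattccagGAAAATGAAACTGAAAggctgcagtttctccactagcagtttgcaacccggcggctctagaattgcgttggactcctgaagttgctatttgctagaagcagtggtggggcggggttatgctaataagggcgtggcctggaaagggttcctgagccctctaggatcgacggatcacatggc

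The core stood at position -120 in Rsad2, where -1 is the last base before the start, counted to the leftmost base of the match. It stood at -156 and -122 in Ifit3, in 2 overlapping copies from -130 in Bst2 and in 3 overlapping copies from -78 in Isg15. Of the 29 genes, 21 had a window, and 12 of these held the core (57.1%), against 3.99% of 27025 genes with a window. A match describes the letters of the window only.

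Rsad2, which encodes viperin, an enzyme that makes an antiviral nucleotide, had levels of 1.60, 2.26, 1.26, 2.30 and 0.71 in EOW mice 1 to 5, against 3.53, 3.75, 2.75 and 3.00 in 2WM mice 1 to 4. The groups did not overlap, and the difference was -1.63 ± 0.35 (SE; limma adjusted p = 0.374). Oasl1, an OAS-like protein that restrains translation of Irf7, had levels of 0.53, 1.25, 0.55, 1.13 and 0.20 in EOW, against 1.96, 1.87, 1.53 and 1.75 in 2WM. Its lowest 2WM mouse lay above its highest EOW mouse, and the difference was -1.04 ± 0.21, with all 3 of its probes lower. Ifi27, an interferon-induced protein of mitochondria, had levels of 5.04, 5.52, 5.13, 5.30 and 4.87 in EOW, against 6.06, 5.76, 6.18 and 6.27 in 2WM. These groups were also separate (-0.90 ± 0.15, adjusted p = 0.354), and both probes of the gene gave -0.90.

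Bst2, the tetherin that holds budding virions at the cell surface, had levels of 1.89, 1.84, 1.29, 1.03 and 1.04 in EOW and 2.53, 2.63, 1.88 and 2.24 in 2WM. It overlapped in a single pair of mice by 0.01 (-0.90 ± 0.23, adjusted p = 0.374). Isg15, a ubiquitin-like modifier, had levels of 1.09, 1.61, 0.20, 1.36 and 0.00 in EOW and 2.61, 2.51, 1.32 and 2.30 in 2WM. The groups overlapped through 2WM mouse 3, and the difference was -1.33 ± 0.39. Ifit3, Usp18, Oasl2 and Oas1g, named after their values were seen, averaged -1.34, -1.20, -1.23 and -1.24. In all 4, EOW mouse 5 was the lowest mouse and 2WM mouse 3 the lowest of its group. The probes of Oas1g and Oasl2 lie in a family of close copies, and which member they read is uncertain. In whole liver, fewer cells of a type and less RNA per cell cannot be told apart. Among Kupffer cell and macrophage markers, cells that also carry interferon-induced genes, 5 of 9 were higher and 4 lower in EOW, none at an unadjusted p under 0.05. Without EOW mouse 4, 1 was higher and 8 lower, and the median difference went from 0.03 to -0.14. EOW mouse 5 had the lowest median level of these markers (1.38, against 2.67 to 3.13 in the other EOW mice and 2.52 to 3.11 in 2WM). The part of these cells in the result was not tested.

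**Figure D2:**
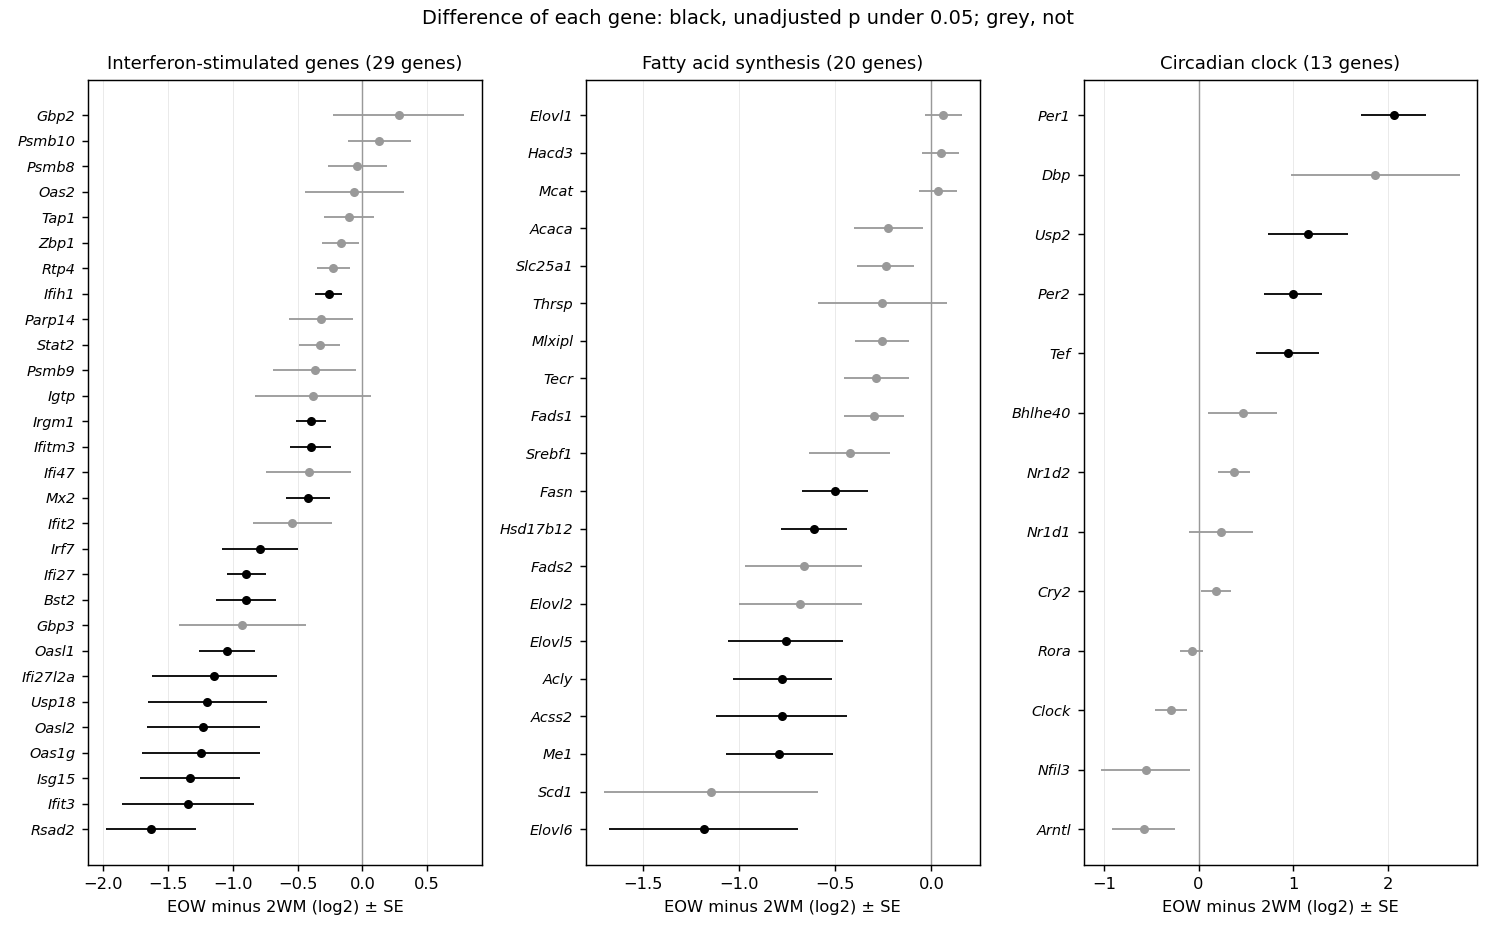
Difference between EOW and 2WM (x axis, log2 units, ± SE) of each tested gene of 3 lists, interferon-stimulated genes (29), fatty acid synthesis (20) and circadian clock (13), with genes at an unadjusted p under 0.05 in black and the others in grey. Of the interferon genes 27 lie left of 0 and of the fatty acid genes 17, whereas 9 of the 13 clock genes lie to the right.

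Per1 and several other clock genes were higher in EOW. Of 13 tested members of the circadian clock, the loop in which CLOCK and BMAL1 drive their own repressors, 9 were higher and 4 lower in EOW, 4 of them higher at an unadjusted p under 0.05 and none lower, against 5.12% and 5.23% of all named genes. Without EOW mouse 5, 3 were lower at that threshold. Usp2, among the 4 higher at that threshold, entered the comparison only through its detection in EOW. It is thus no separate support for the direction. Per1, a repressor of CLOCK and BMAL1, had levels of 2.50, 1.57, 1.07, 2.33 and 2.84 in EOW, against -0.15, 0.32, -0.41 and 0.25 in 2WM. The lowest EOW mouse was 0.75 above the highest 2WM mouse, a gap wider than the range within 2WM. The difference was 2.06 ± 0.34, a 4.17-fold higher signal in EOW (limma adjusted p = 0.354; exact permutation p = 0.0159), and both probes of Per1 were higher. Its promoter is shown with the E-box letters CACGTG, the site that CLOCK and BMAL1 bind, in capitals.

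Per1 promoter, chr11:69098699-69098998, forward strand: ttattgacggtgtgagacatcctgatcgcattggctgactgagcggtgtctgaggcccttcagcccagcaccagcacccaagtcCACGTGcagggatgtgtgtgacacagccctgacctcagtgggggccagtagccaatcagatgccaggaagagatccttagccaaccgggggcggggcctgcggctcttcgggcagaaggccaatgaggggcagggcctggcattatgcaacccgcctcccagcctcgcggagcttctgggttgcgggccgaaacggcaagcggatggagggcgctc

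The E-box of this window stood at -166, and a further window of Per1 held none. Of 11 clock genes with a window, 2 (Per1 and Tef) held an E-box (18.2%), against 8.09% of 27025 genes.

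Per2, the partner of Per1, had levels of 2.06, 1.45, 1.20, 2.69 and 1.12 in EOW against 0.54, 0.65, 0.56 and 1.06 in 2WM. The groups did not overlap on this probe (1.00 ± 0.31, adjusted p = 0.403), but its other probe gave -0.03, so that the 2 probes of Per2 disagreed. Usp2, a ubiquitin protease with a daily rhythm, had levels of 1.81, -0.19, -0.51, 0.21 and 1.17 in EOW, against -0.71, -0.66, -0.67 and -0.58 in 2WM. The EOW mice ranged widely and the 2WM mice lay together at the low end (1.15 ± 0.42, adjusted p = 0.446). The probe was detected on 6 of 6 EOW arrays but on 2 of 5 2WM arrays, so it entered the comparison through EOW alone. The 2WM values lie near background, and the size of the difference is uncertain. With another background correction (neqc) the difference was 2.31. Tef, a PAR-domain output regulator, differed by 0.94 ± 0.33 with overlap. Its relative Dbp, named after its values were seen, ran from 1.25 to 4.68 in EOW and from -0.28 to 3.00 in 2WM, a range within each group larger than its difference of 1.87. Within 2WM, mice 1 and 4 had Dbp levels of 2.26 and 3.00 and mice 2 and 3 of 0.04 and -0.28. Arntl, which encodes BMAL1, differed by -0.58 ± 0.33.

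Genes induced by glucocorticoids and the metallothioneins, which bind zinc and copper, were higher in EOW in 8 of 9 tested. Of the 9, 3 were higher at an unadjusted p under 0.05 and none lower, against 5.12% and 5.23% of all named genes. Mt1 had levels of 6.98, 4.79, 5.31, 5.58 and 6.70 in EOW, against 4.53, 4.48, 3.32 and 3.31 in 2WM. No EOW mouse overlapped with 2WM (1.96 ± 0.48, 3.89-fold; adjusted p = 0.374). Gadd45b, a stress-induced regulator of growth arrest, did not overlap either and differed by 0.33 ± 0.10. However, its probe was detected on 6 of 6 EOW arrays and 1 of 5 2WM arrays, and the difference was 1.07 with neqc. Gadd45b, among the 3 above, thus entered the comparison through EOW alone and is no separate support for the direction. Fkbp5, a chaperone of the glucocorticoid receptor that the receptor itself induces, had levels of 2.28, 0.31, 0.91, 1.31 and 2.56 in EOW and 0.37, 0.80, 0.52 and 0.05 in 2WM. EOW mice 1 and 5 were the highest for both Mt1 and Fkbp5, and EOW mouse 2 lay inside the 2WM range of Fkbp5. Cebpb, a C/EBP transcription factor, had a difference of 0.56 ± 0.27 with overlap, and 0.36 without EOW mouse 5. Without EOW mouse 3, or with arrays centred on their medians, the count of 3 became 5.

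Of the genes with the smallest p and separate groups, 10 higher and 10 lower in EOW, the differences ran from 0.35 to 2.06 and from -1.17 to -0.38. Their adjusted p lay between 0.272 and 0.374, and their exact permutation p was 0.00794 for 17 and 0.0159 for 3; with 5 against 4 mice 0.00794 is the smallest that can be reached, so for these 17 it says no more than that the groups did not overlap. These genes were picked for this separation, and the p-values describe them.

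Among those higher in EOW, Alas1, the rate-limiting enzyme of heme synthesis, had levels of 5.79, 4.94, 4.97, 5.45 and 5.81 in EOW against 3.91, 4.72, 4.28 and 4.12 in 2WM. The lowest EOW mouse lay above the highest 2WM mouse, and the difference was 1.14 ± 0.23 (2.20-fold). Coq10b, a coenzyme Q-binding protein of mitochondria, differed by 0.71 ± 0.15, and both its probes were higher. Rdh9, a short-chain retinol dehydrogenase, had levels of 3.10, 3.31, 3.58, 3.27 and 3.39 in EOW against 2.52, 2.76, 2.74 and 2.82 in 2WM, and differed by 0.62 ± 0.11. Camta2, a calmodulin-binding transcription activator, and Plec, the cytoskeletal linker plectin, both differed by 0.64. The SD between mice was 0.16 in EOW and 0.15 in 2WM for Camta2, and 0.18 in EOW and 0.13 in 2WM for Plec. Zfp91, a zinc finger ubiquitin ligase, differed by 0.45, Flvcr2, a transporter of the major facilitator family, by 0.54, and Inpp5a, an inositol polyphosphate phosphatase, by 0.35. Slc15a2, a proton-coupled peptide transporter, was detected on all 6 EOW arrays and on 0 of 5 2WM arrays, and so entered through EOW alone. Its signal in 2WM was thus not above background, and EOW was at least 1.54-fold higher, computed against the lowest detected signal of each 2WM array where that was above the probe's own.

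Among those lower in EOW, Bet1, a SNARE of transport between the endoplasmic reticulum (ER) and the Golgi, had levels of 0.69, 1.06, 1.07, 0.72 and 0.82 in EOW against 1.44, 1.71, 1.62 and 1.68 in 2WM (-0.74 ± 0.11, adjusted p = 0.272). Id2, an inhibitor of basic helix-loop-helix transcription factors, had levels of 2.26, 2.62, 2.18, 2.50 and 2.26 in EOW against 3.12, 3.28, 2.97 and 3.09 in 2WM (-0.75 ± 0.11, adjusted p = 0.272). These were the 2 genes with the smallest p of all tested, and both probes of Id2 were lower. Ppp1r3c, which brings protein phosphatase 1 to glycogen and promotes glycogen synthesis, had levels of 3.23, 3.89, 3.40, 3.49 and 2.93 in EOW and 4.58, 3.99, 4.79 and 4.88 in 2WM. 2WM mouse 2 was the 2WM mouse nearest to EOW, and the difference was -1.17 ± 0.22 (2.25-fold higher in 2WM). Psmd11, a lid subunit of the proteasome, differed by -0.61, and both of its probes were lower. Cmtm6, which keeps PD-L1 at the cell surface, differed by -0.51, and Art3, of the ADP-ribosyltransferase family, by -0.42. The Art3 probe lay near the background and was detected on 5 of 6 EOW arrays, and the other probe of Art3 gave -0.11. Akr1c6, a hydroxysteroid dehydrogenase of mouse liver, differed by -0.38 and was detected on 4 of 6 EOW arrays. Krt26, a keratin, differed by -1.15 near the background, being detected on 3 of 6 EOW arrays and all 5 2WM arrays. Art3, Akr1c6 and Krt26 thus entered the comparison through 2WM alone, the group where they were higher. Rbm18, an RNA-binding protein, differed by -0.62 on its brighter probe and by 0.03 on the other, so that the 2 disagreed.

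Lipogenic enzymes were lower in EOW. Of 20 tested genes of fatty acid synthesis and desaturation, which turn citrate and acetate into long and unsaturated fatty acids, 17 were lower and 3 higher, 7 of them lower at an unadjusted p under 0.05 and none higher. The median difference was -0.46, and the median level was 2.68 to 3.30 in EOW against 3.34 to 3.59 in 2WM. These medians did not overlap, but EOW mouse 2 at 3.304 and 2WM mouse 1 at 3.335 lay close together. Of the single genes of the list, 0 had separate groups in either direction, against 2.14% above and 1.94% below of all named genes. The count of 7 became 14 without EOW mouse 2, 4 without EOW mouse 5, 2WM mouse 2 or 2WM mouse 3, and 3 without 2WM mouse 1, and it was 4 with arrays centred on their medians. Acly, the citrate lyase that supplies acetyl-CoA to the cytosol, had levels of 4.23, 5.35, 5.13, 4.49 and 4.31 in EOW and 5.73, 5.14, 5.73 and 5.29 in 2WM (-0.77 ± 0.26, limma adjusted p = 0.419). Fasn, the fatty acid synthase, differed by -0.50 ± 0.17, Me1, which supplies NADPH, by -0.79 ± 0.28 with both probes lower, and Hsd17b12, of the elongation cycle, by -0.61 ± 0.17 (adjusted p = 0.380). The Fasn probe was dim and detected on 5 of 6 EOW arrays and all 5 2WM arrays. It thus entered the comparison through 2WM alone, and its difference ran from -1.18 to -0.40 across the settings tried. The largest difference of the list was that of Elovl6, the elongase of palmitate, at -1.18.

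Scd1, the stearoyl-CoA desaturase, had levels of 3.50, 6.42, 6.25, 6.16 and 4.82 in EOW against 6.75, 6.41, 6.85 and 6.29 in 2WM. EOW mice 1 and 5 were far below and the other 3 close to 2WM (-1.15 ± 0.56, adjusted p = 0.550; -0.66 without EOW mouse 1). The same mice 1 and 5 had the lowest levels of Srebf1, the regulator of these enzymes, at 0.91 and 0.35, and the group difference was -0.42 ± 0.21, and -0.26 without EOW mouse 5. Of 17 members with a promoter window, 1 held the sterol regulatory element TCACNCCAC (5.88%, against 1.44% of all genes) and 4 an E-box (23.5%, against 8.09%).

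Cholesterol enzymes leaned the same way with fewer small p. Of 16 tested, 14 were lower and 2 higher in EOW, 3 of them lower at an unadjusted p under 0.05, and the median difference of -0.30 was -0.14 without EOW mouse 4. The median level was 1.68 to 2.46 in EOW and 2.05 to 2.45 in 2WM, which overlapped throughout. Sc5d, the sterol-C5-desaturase near the end of the pathway, had levels of -0.07, 0.92, 1.16, 0.25 and -0.39 in EOW against 1.41, 1.51, 1.82 and 1.98 in 2WM. The groups were separate, and the difference was -1.30 ± 0.31 (2.47-fold higher in 2WM; adjusted p = 0.374). Idi1, the isopentenyl diphosphate isomerase, differed by -0.54 ± 0.16 and Dhcr7, the last reductase of the pathway, by -0.66 ± 0.26. Of the mevalonate enzymes, Hmgcs1, the HMG-CoA synthase, differed by -0.32, Fdps, the farnesyl diphosphate synthase, by -0.31 and Mvd, the mevalonate decarboxylase, by -0.40, all with overlapping groups and an adjusted p of 0.560 or above. Without EOW mouse 4, Hmgcs1 was at -0.18 and Fdps at -0.16, and Fdps was at -0.17 without EOW mouse 1 and -0.19 without 2WM mouse 1. Without EOW mouse 2 the count of 3 became 6.

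Triglyceride enzymes and droplet proteins showed a mixed picture. Of 9 genes of triglyceride synthesis, 7 were higher in EOW. Among these 1 had an unadjusted p under 0.05, against 5.12% of all named genes. The 1 became 2 without EOW mouse 1, 4 or 5 or with neqc or quantile normalization, and 3 without 2WM mouse 3, and 1 was lower without EOW mouse 5. That gene was Lpin1, a phosphatidate phosphatase and coactivator, with levels of 3.20, 2.02, 1.71, 2.64 and 3.22 in EOW against 1.41, 1.61, 1.35 and 1.00 in 2WM. All EOW mice lay above 2WM, mice 1 and 5 highest (1.21 ± 0.32, 2.32-fold; adjusted p = 0.374). Lpin2 and Gpat3, of the same pathway, differed by 0.31 and 0.34, and Gpam, the mitochondrial acyltransferase, by -0.45. Gpat3 was at 0.23 without EOW mouse 4 and Gpam at -0.26 without EOW mouse 5. Of 12 droplet and lipolysis genes, 6 were higher and 6 lower. Plin4, a droplet coat protein, had levels of 0.53, 0.29, 0.47, 1.79 and 1.67 in EOW against -0.24, -0.28, -0.23 and -0.08 in 2WM. The 2WM mice differed among themselves by 0.20 at most, and the difference was 1.16 ± 0.32. Pnpla2, the triglyceride lipase ATGL, differed by 0.84 ± 0.29, and Mgll, the monoglyceride lipase, by -0.46 ± 0.17 on the brightest of 3 probes that were all lower. Plin2, the main droplet coat of hepatocytes, was at 2.16, 3.58, 3.22, -1.60 and 1.49 in EOW and 3.54, 3.37, 3.88 and 3.43 in 2WM. Its difference of -1.78 ± 0.90 rested in large part on EOW mouse 4 and was -0.94 without it. The Plin2 probe was detected on 5 of 6 EOW arrays and all 5 2WM arrays. It thus entered the comparison through 2WM alone, the group where it was higher, and is no separate support for the direction.

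**Figure D3:**
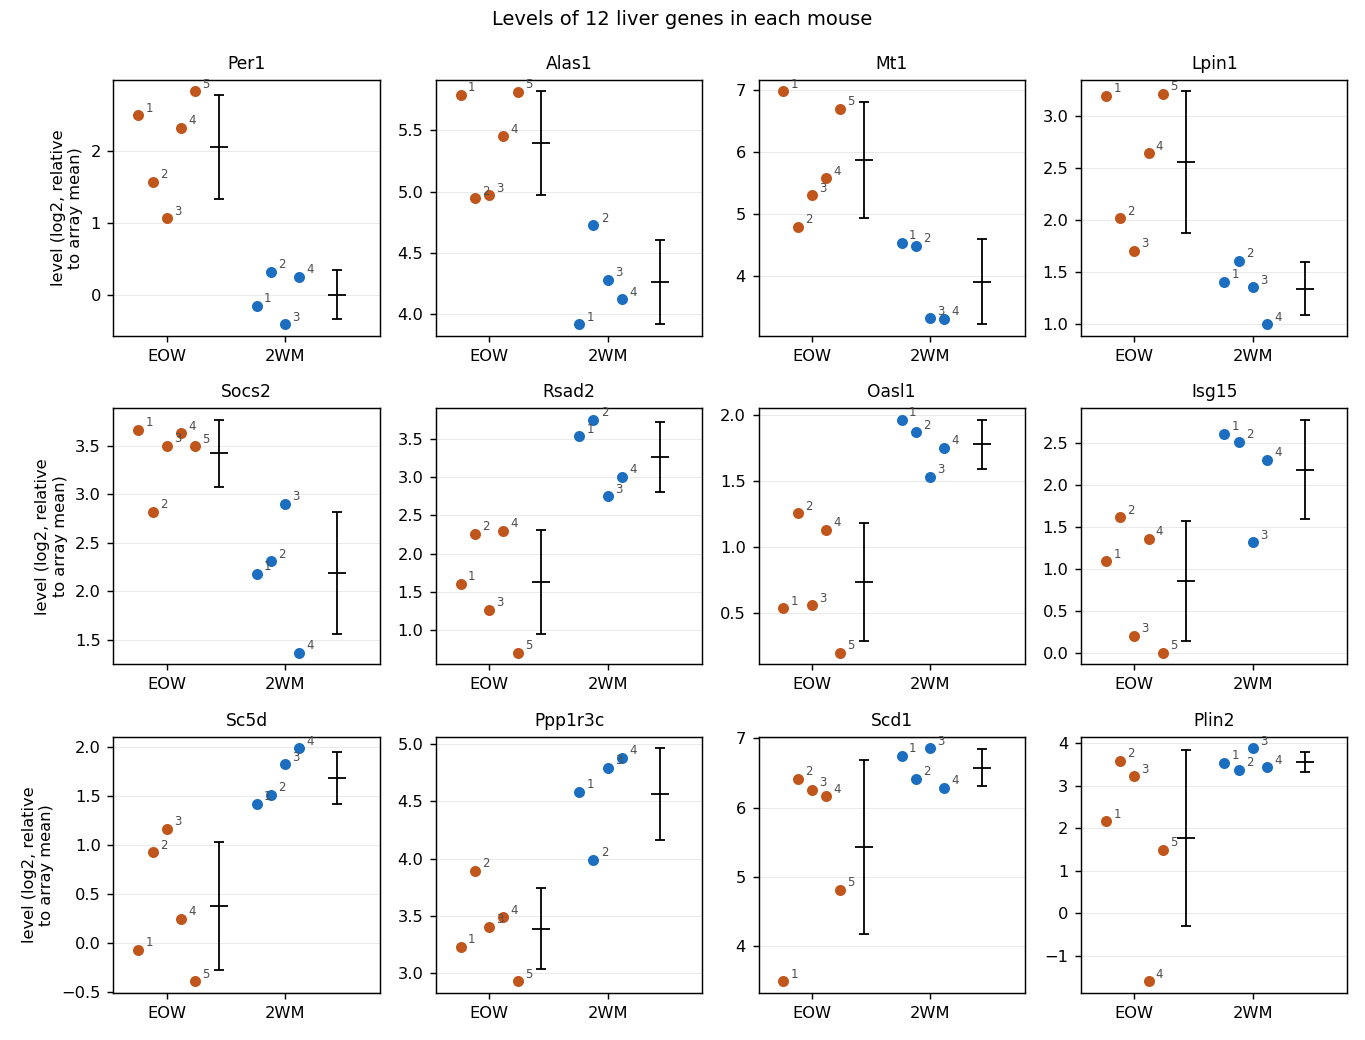
Level (y axis, log2 relative to the array mean) of 12 genes in each of 5 EOW mice (left, orange) and 4 2WM mice (right, blue), numbered by mouse, with mean ± SD beside the points. The groups are separate for Per1, Alas1, Mt1, Lpin1, Rsad2, Oasl1, Sc5d and Ppp1r3c, and they overlap for Socs2, Isg15, Scd1 and Plin2; EOW mouse 4 lies at -1.60 for Plin2.

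Genes that male mouse liver expresses above female liver were lower in EOW, and 2WM mouse 2 sided with the EOW mice. All 5 major urinary protein genes tested, pheromone carriers that the male liver secretes in bulk, were lower in EOW, each at an unadjusted p under 0.05, with a median difference of -2.59; the 5 are close copies, probes of the family may read more than 1 member, and they do not count as 5 separate results. Mup5 had levels of 0.68, 4.06, 2.89, 1.87 and 1.94 in EOW against 5.18, 3.67, 5.55 and 5.58 in 2WM (-2.71 ± 0.65, limma adjusted p = 0.374). Mup20, the pheromone darcin, had levels of -0.01, 3.78, 1.47, 0.56 and 0.31 in EOW against 5.07, 2.06, 5.30 and 5.22 in 2WM (-3.19 ± 0.89). 2WM mouse 2 was some 3 log2 units below the rest of its group, and EOW mouse 2 was above that mouse. Mup2 and Mup6 differed by -1.42 and -1.78. The median level of the family was 1.81, 4.79, 2.89, 1.87 and 1.94 in EOW and 5.51, 3.67, 5.79 and 6.05 in 2WM.

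Of 11 other male-biased genes tested, all were lower in EOW, 9 of them at an unadjusted p under 0.05, and the median difference was -1.02. The 9 became 5 without 2WM mouse 3 and 4 without 2WM mouse 4, and 10 without 2WM mouse 2, when the median was -1.36. Cyp4a12a, an arachidonate hydroxylase, had levels of 0.69, 1.92, 0.58, -0.40 and 1.04 in EOW against 3.34, 0.79, 3.71 and 4.30 in 2WM. 2WM mouse 2 lay in the middle of the EOW mice and the other 3 far above them (-2.27 ± 0.69, adjusted p = 0.389). Cyp4a12b, with which its probe may be shared, differed by -1.98. Nudt7, a peroxisomal coenzyme A hydrolase, had levels of 3.73, 5.38, 4.43, 3.42 and 3.90 in EOW against 5.81, 5.00, 6.28 and 6.48 in 2WM (-1.72 ± 0.42), and Keg1, a glycine acyltransferase relative, differed by -1.12 ± 0.38. Of 8 such genes with a window 1 held the STAT5 letters TTCNNNGAA (12.5%, against 9.55% of all genes), and of 3 Mup genes none held any of the motifs searched.

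Of 22 female-biased genes listed, 16 were on the array and 5 were tested. Of these 5, 4 were higher in EOW, 3 at an unadjusted p under 0.05 and 1 without 2WM mouse 4. With a detection p-value under 0.01 as the filter, 4 were tested and 3 were higher. Cyp2b9, a steroid hydroxylase, had levels of 4.45, 3.11, 3.81, 2.87 and 3.02 in EOW against 1.13, 4.25, 1.76 and 0.09 in 2WM. For this gene 2WM mouse 2 again stood among the EOW mice, and the difference was 1.64 ± 0.73, and 1.07 without 2WM mouse 4. The median level of the 5 genes went the other way in that mouse. It was 0.84 in 2WM mouse 2, inside the 2WM range of 0.088 to 0.85 and below the EOW range of 1.23 to 2.67. Acot3, an acyl-CoA thioesterase, differed by 1.59 ± 0.49 and Cyp17a1, the 17-alpha-hydroxylase, by 1.35 ± 0.49, while Cyp2b13 differed by 0.97 ± 0.64, and by 0.45 without EOW mouse 1. Its probe was detected on 6 of 6 EOW arrays and 2 of 5 2WM arrays, so it entered the comparison through EOW alone. Its 2WM values lie near background, and the difference was 1.87 with neqc. In the growth hormone axis, Socs2, a feedback inhibitor that growth hormone induces through STAT5, had levels of 3.67, 2.82, 3.50, 3.63 and 3.50 in EOW against 2.18, 2.31, 2.90 and 1.37 in 2WM. Only EOW mouse 2 lay within the 2WM range, and the difference was 1.23 ± 0.29 (2.35-fold; adjusted p = 0.374). Ghr, the receptor, differed by -0.46 ± 0.17 with both probes lower, and Cish and Socs3, inhibitors of the same family as Socs2, by 0.93 ± 0.54 and 0.77 ± 0.40. Cish was at 0.52 without 2WM mouse 4, and Socs3 was at 0.42 with array weights. Of 14 genes of the axis 9 were higher and 5 lower. In each direction 1 had an unadjusted p under 0.05, against 5.12% and 5.23% of all named genes. The higher count became 2 without EOW mouse 2 or 4 or 2WM mouse 1 or 3 and with quantile normalization, and the lower count became 0 without 2WM mouse 1, 3 or 4 and with median centring. Igfbp2, an insulin-like growth factor carrier, differed by 0.23 ± 0.13. Dio1, the deiodinase that activates thyroid hormone, differed by -1.11 ± 0.35 (adjusted p = 0.416) with both probes lower.

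**Figure D4:**
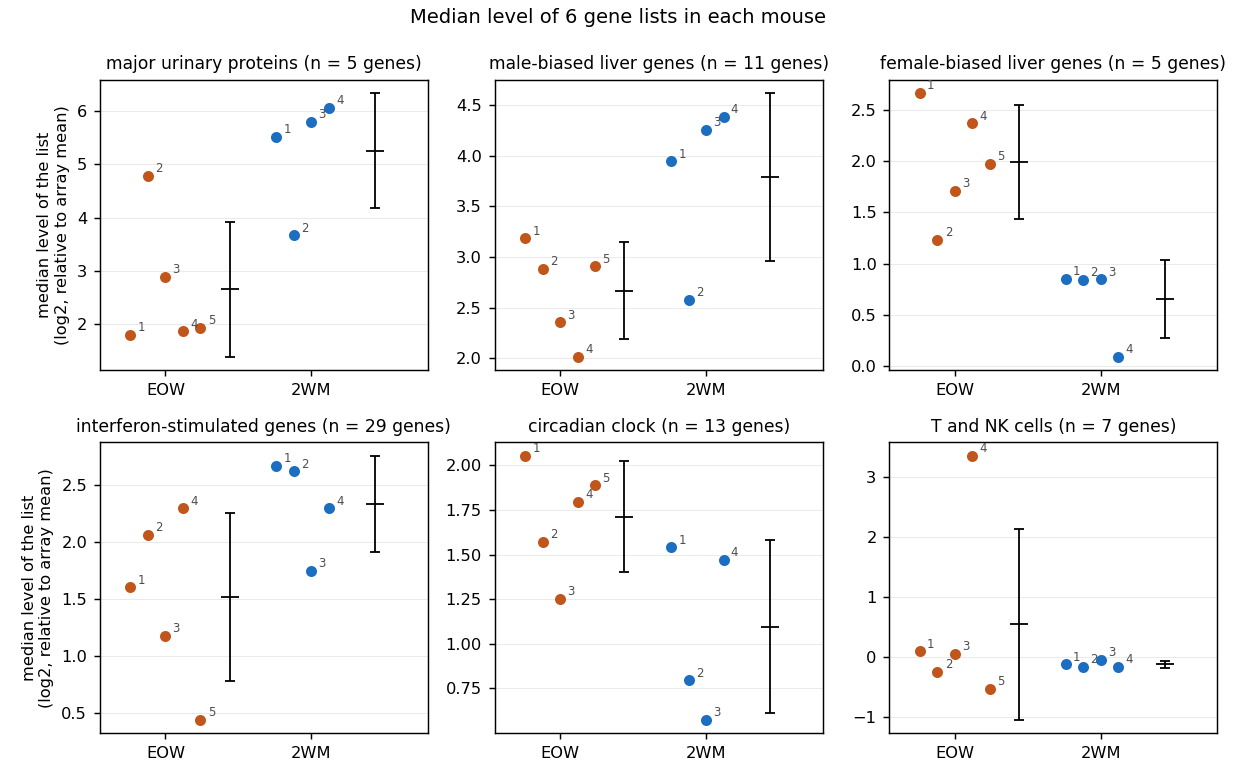
Median level (y axis, log2 relative to the array mean) of 6 gene lists in each of 5 EOW mice (left, orange) and 4 2WM mice (right, blue), numbered by mouse, with mean ± SD. 2WM mouse 2 lies apart from the other 2WM mice for the major urinary proteins (3.67) and the male-biased genes (2.58), and EOW mouse 4 alone is high for T and NK cell markers (3.36).

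The machinery of translation was slightly higher in EOW. Of 56 cytosolic ribosomal protein genes tested, 50 were higher, 16 of them at an unadjusted p under 0.05, and 1 was lower at that threshold, with a median difference of 0.21. The 16 became 4 without 2WM mouse 3, 7 without 2WM mouse 4, 6 without EOW mouse 1, 9 without 2WM mouse 2 and 10 without EOW mouse 5, and they were 27 with arrays centred on their medians. Rplp0, of the ribosomal stalk, differed by 0.47 ± 0.13 (adjusted p = 0.380). Rps9 and Rps4x, of the small subunit, differed by 0.47 and 0.39. Fau, the precursor of another small subunit protein, had levels of 5.73, 4.83, 4.84, 5.15 and 5.27 in EOW against 4.77, 4.59, 4.45 and 4.63 in 2WM (0.55 ± 0.18). These groups were separate by 0.05. Median signal per array was lower in EOW, with its largest value 164.5 inside the 2WM range of 161.5 to 178.1, and its part in shifts of this size was not tested.

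Of 30 translation factors, 25 were higher in EOW. Higher at an unadjusted p under 0.05 were 5 and lower none, against 5.12% and 5.23% of all named genes. Without 2WM mouse 3 or mouse 4 the 5 became 1, and without 2WM mouse 1 or with neqc they became 3. Eef2, the elongation factor that moves the ribosome along, differed by 0.53 ± 0.18 with all 3 of its probes higher. Eif3f and Eef1d differed by 0.41 and 0.32, and Eif2b2 by 0.22. The proteasome leaned the other way: 24 of 30 subunit genes were lower, with a median of -0.11. Of these 30, 4 were lower and 1 higher at an unadjusted p under 0.05, against 5.23% and 5.12% of all named genes. Psmb7, a catalytic subunit, had levels of 3.69, 4.14, 4.08, 3.62 and 3.99 in EOW against 4.40, 4.15, 4.53 and 4.71 in 2WM (-0.54 ± 0.15, all 3 probes lower). The groups were separate by 0.02. Psma4, of the outer ring, differed by -0.23 and Psmd13, of the lid, by 0.23. Without 2WM mouse 3 or 2WM mouse 4, or with median centring, the 4 became 2.

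Of 16 ER chaperones and genes of the unfolded protein response, 14 were lower in EOW, 4 at an unadjusted p under 0.05 and none higher, with a median of -0.27, and the 4 became 8 without EOW mouse 3. Dnajb9, a co-chaperone of BiP, had levels of 3.07, 2.58, 2.86, 2.54 and 2.69 in EOW against 3.35, 3.71, 3.66 and 2.98 in 2WM. Only EOW mouse 1 reached into the 2WM range (-0.67 ± 0.17, adjusted p = 0.374). Calr, the lectin chaperone calreticulin, differed by -0.68 ± 0.22 and Sec61b, of the translocon, by -0.37 ± 0.15, both without overlap. Pdia6, a disulfide isomerase, differed by -0.66 ± 0.22.

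Of 16 complement genes, 13 were lower in EOW. Lower at an unadjusted p under 0.05 were 3 and higher none, against 5.23% and 5.12% of all named genes. C8a, a chain of the membrane attack complex, had levels of 2.01, 3.10, 3.09, 1.93 and 2.59 in EOW against 3.62, 3.11, 3.78 and 3.78 in 2WM. The groups were separate by 0.01 (-1.03 ± 0.28, limma adjusted p = 0.375). C6, of the same complex, differed by -0.76 ± 0.29 with both probes lower, C8b by -0.82 ± 0.37 (-0.51 without EOW mouse 4) and Mbl1, a mannose-binding lectin, by -0.63 ± 0.22. The 3 became 5 without EOW mouse 2 or 2WM mouse 2 and 1 without 2WM mouse 4. Acute phase proteins, which inflammation induces, were higher in 8 of 19 and lower in 11. Higher at an unadjusted p under 0.05 were 2, against 5.12% of all named genes. Saa3, the serum amyloid A form that is also made outside hepatocytes, had levels of 1.92, 2.22, 2.06, 2.70 and 1.56 in EOW against 0.37, 1.23, 0.83 and 1.44 in 2WM. All EOW mice lay above 2WM (1.12 ± 0.26, adjusted p = 0.374). Saa4, the constitutive form, differed by -0.15 ± 0.33, by 0.16 without EOW mouse 4 and by -0.27 without EOW mouse 5. Lbp, which binds lipopolysaccharide, differed by 0.69 ± 0.30, Lcn2, the siderophore-binding lipocalin, by 1.24 ± 0.56 and Cd14 by 0.56 ± 0.29. The median of the acute phase list was -0.02, and without EOW mouse 4 it was 0.21, with 16 genes higher and 3 lower. With arrays centred on their medians, 14 were higher and 5 lower. Without 2WM mouse 2 or without EOW mouse 4, 5 and 4 of its genes were higher at an unadjusted p under 0.05, and 1 without any of EOW mouse 1, EOW mouse 3, 2WM mouse 1, 2WM mouse 3 and 2WM mouse 4.

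Glucose genes gave no common direction. Of 11 genes of gluconeogenesis, 6 were higher and 5 lower in EOW. An unadjusted p under 0.05 held for 1 and 2 of them, against 5.12% and 5.23% of all named genes. The 2 became 4 without EOW mouse 5, 0 without 2WM mouse 3 and 1 without 2WM mouse 4, and the 1 became 2 without EOW mouse 4. Pck1, the cytosolic carboxykinase, had levels of 2.73, 1.29, 2.23, 0.77 and 3.60 in EOW against 1.73, 2.23, 2.15 and 1.96 in 2WM. EOW mice lay on both sides of 2WM (0.10 ± 0.50, adjusted p = 0.948), and the sign turned under other settings, with a value of 0.44 without EOW mouse 4 and -0.27 without EOW mouse 5. Foxo1, a transcription factor that insulin restrains, differed by 0.37 ± 0.12, Mdh1, the cytosolic malate dehydrogenase, by -0.42 ± 0.14 with both probes lower, Creb3l3, a membrane-bound factor of the fasting response, by -0.35 ± 0.13 and Fbp1, the fructose bisphosphatase, by -0.30 (-0.18 without EOW mouse 4). Ppargc1a, the coactivator PGC-1 alpha, differed by 0.54 ± 0.34 and Angptl4, an inhibitor of lipoprotein lipase, by 0.48 ± 0.42. Without EOW mouse 4, Ppargc1a was at 0.83 with separate groups (limma adjusted p = 0.278) and Angptl4 at 0.77 (adjusted p = 0.411). Ppargc1a was at 0.35 without EOW mouse 1, and Angptl4 was at 0.79 without 2WM mouse 3 and 0.32 without EOW mouse 5. Idh1, the cytosolic isocitrate dehydrogenase, had levels of 3.80, 4.53, 4.67, 3.90 and 4.29 in EOW against 4.66, 4.58, 4.91 and 4.86 in 2WM. EOW mouse 3 reached the 2WM range (-0.51 ± 0.19, adjusted p = 0.441).

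Of 15 genes of bile acid synthesis and transport, 3 were higher and 2 lower in EOW at an unadjusted p under 0.05. The shares of all named genes were 5.12% and 5.23%. Slco1a4, a sinusoidal organic anion carrier, had levels of 2.17, 1.73, 1.70, 1.89 and 3.03 in EOW against 1.17, 1.5, 0.77 and 0.93 in 2WM, with separate groups (1.01 ± 0.27, adjusted p = 0.375). Cyp7a1, the rate-limiting enzyme of bile acid synthesis, had levels of 3.08, 3.43, 3.54, 3.18 and 5.32 in EOW against 3.12, 1.25, 2.15 and 3.15 in 2WM. EOW mouse 5 was the highest by 1.78 (1.29 ± 0.53, adjusted p = 0.488). Abcb11, the bile salt export pump, differed by -0.52 ± 0.16 and Hsd3b7, of the ring modification, by -0.49 ± 0.17. The 3 became 1 without EOW mouse 5, 2WM mouse 2 or 2WM mouse 3, and the 2 became 1 without 2WM mouse 1 or 2WM mouse 4 and with median centring. Of 20 conjugation enzymes, carboxylesterases and flavin monooxygenases, 5 were lower in EOW at an unadjusted p under 0.05 and none higher. The carboxylesterases Ces3b and Ces1f differed by -1.57 ± 0.41 and -1.30 ± 0.35 with overlap, and Ces1e by -0.75 ± 0.24 without it. Ces1e was at 0.46 in EOW mouse 4 and at 1.34 to 1.5 in the other EOW mice. Ugt2b35, a glucuronosyltransferase, differed by -0.43 ± 0.12 without overlap.

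The known sensors and carriers of metformin differed little. Of 14 tested genes of AMPK, mTORC1 and the metformin transporters, 9 were higher and 5 lower in EOW, with a median of 0.09. Higher at an unadjusted p under 0.05 were 2, against 5.12% of all named genes. The 2 became 1 on leaving out EOW mouse 2, 3 or 4 or 2WM mouse 1, 3 or 4, or with neqc. Prkab1, a regulatory beta subunit of AMPK, had levels of 2.16, 1.99, 1.90, 2.19 and 2.28 in EOW against 1.90, 1.78, 1.76 and 1.69 in 2WM. The lowest EOW and the highest 2WM mouse were 0.01 apart (0.32 ± 0.10, adjusted p = 0.390). Rragc, a Rag GTPase that brings mTORC1 to the lysosome, differed by 0.24 ± 0.10. Tsc2, which restrains mTORC1, differed by 0.18 and Slc47a1, the MATE exporter that carries metformin into bile, by 0.28 ± 0.20, with all 3 of its probes higher and overlapping groups. Without EOW mouse 5, Tsc2 was at 0.28 and Slc47a1 at 0.15, and Slc47a1 was at 0.19 without EOW mouse 1.

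**Figure D5:**
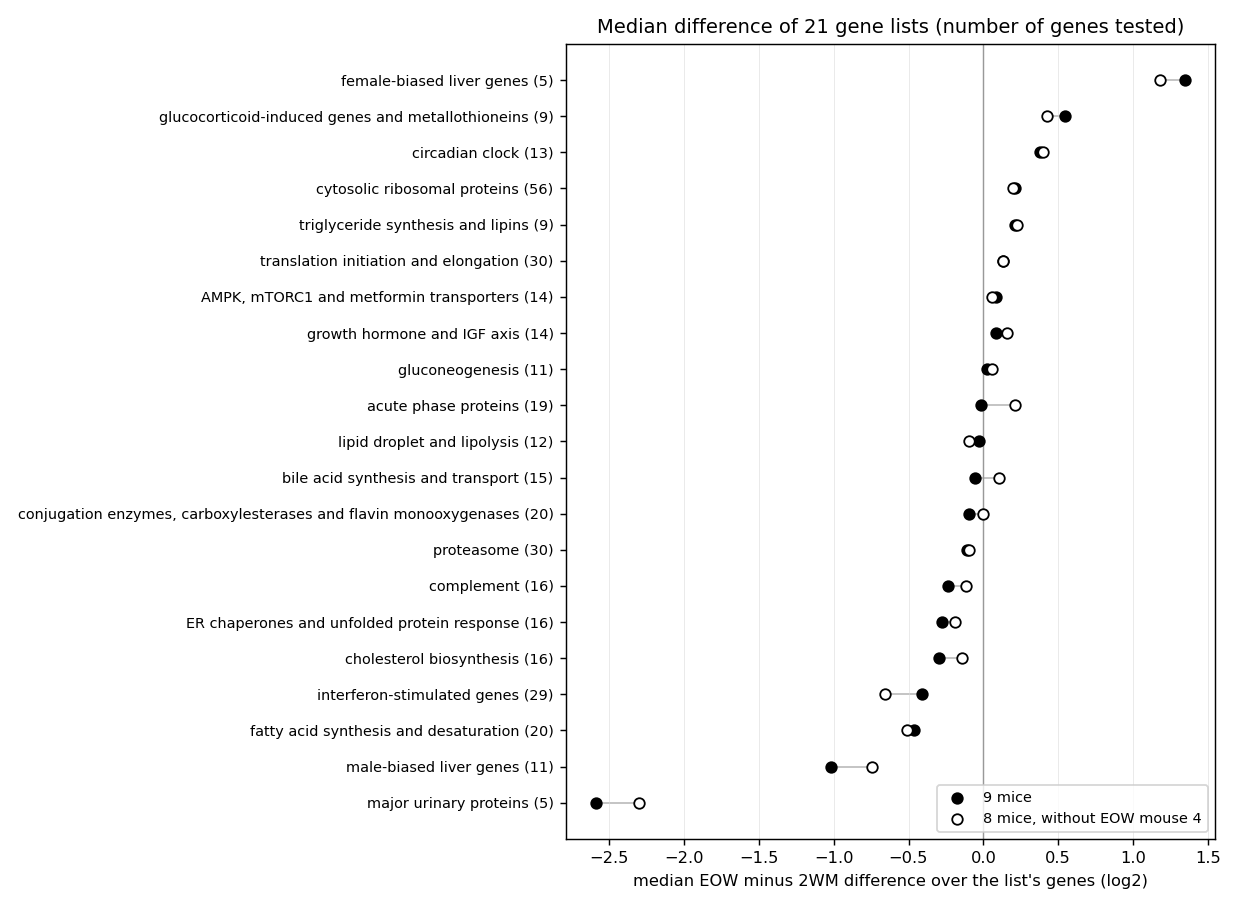
Median difference between EOW and 2WM (x axis, log2 units) over the tested genes of 21 lists (y axis, number of genes in brackets), with all 9 mice (filled) and without EOW mouse 4 (open). The major urinary proteins lie lowest at -2.59 and the female-biased genes highest at 1.35, and the interferon list moves to -0.66 and the acute phase list to 0.21 without EOW mouse 4.

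Markers of lymphocytes set EOW mouse 4 apart from all others. Of 17 T and NK cell markers 7 were tested, namely Cd3d, Cd3e, Cd3g, Cd8b1, Ccl5, Klrd1 and Thy1. Cd8b1 was at 5.24 in EOW mouse 4, at -0.25 to 0.04 in the other EOW mice and at -0.28 to 0.18 in 2WM. Cd3d was at 3.92 in that mouse, at -0.70 to 0.17 in the other EOW mice and at -0.17 to -0.06 in 2WM. Cd3e, Cd3g, Ccl5 and Klrd1 were also highest in EOW mouse 4, at 2.25, 3.36, 5.75 and 2.80, whereas Thy1 was lowest there, at -1.54. The median level of the list was 3.36 in EOW mouse 4, -0.53 to 0.10 in the other EOW mice and -0.17 to -0.05 in 2WM. With all 9 mice 6 of the 7 were higher in EOW, none at an unadjusted p under 0.05, and without EOW mouse 4 the median difference was -0.12. Their part in the differences above was not tested beyond leaving out the mouse.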

How the data were processed

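Liver RNA of 9 mice (5 EOW, 4 2WM) was measured on 11 Illumina BeadArrays. The authors deposited the probe intensity of each array, with no normalization or background subtraction stated, and beside it the deposited detection p-value of each probe against background beads. The authors also deposited a Z score per probe and array, which equalled the Z score of the log2 intensity computed here within 0.000106. The submitters' processing notes name GenomeStudio 2011.1. The platform annotation gave 1 symbol for 23978 probes, several for 0 and none for 1719, and 23962 probes matched a gene of the RefSeq table.

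Log2 signals were brought to Z scores within each array, multiplied by the mean SD of the arrays (1.439), and averaged over arrays of a mouse. In R 4.3.3, limma 3.58.1 (lmFit, eBayes, 7 residual degrees of freedom) compared EOW with 2WM over 10814 probes with Benjamini-Hochberg adjustment. A gene was read by its brightest tested probe. Exact permutation tests were two-sided over the 126 splits of the mice. Errors after ± are standard errors unless SD is written. The steps were tested on simulated data.

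Genes and lists were chosen with earlier results of these data known. Named are the 10 genes per direction with the smallest p and no overlap between groups (none was called), the 4 of smallest p in each of 21 lists described (fewer where fewer were tested), and 23 genes the study names, of which 18 were on the array and 17 tested. Others are said to be named after their values were seen, or belong to a marker list or a sentence on a list's extreme. Lists, 51 of genes and 12 of markers, were described by counts, with no test.

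Other normalizations tried were neqc with an offset of 16, quantile normalization, centring on the median and the deposited Z scores. Other filters were none, a detection p-value under 0.01 and genes instead of probes. Fits with the replicate number as a block, with an intensity trend, with array weights (statmod 1.5.0), with the first or second array of a mouse and without each mouse in turn were run too, as were an adjusted p under 0.30 and the methods' criteria without their ANOVA condition. Nothing says that equal mouse numbers share a batch, and nothing but the labels says how separate the mice of a group were kept; p-values measure the spread between these mice. BeadArray background and saturation compress differences where a probe is dim or very bright, and the number of arrays limits the precision.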

Additional observations from a re-analysis of the deposited data

Results flagged for a closer look

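In each group of 4 or 5 mice, the value of 1 mouse was set against the range of its group (Dixon's test at 95%), over 112 named genes and 21 lists. Of 266 groups 15 held a mouse apart from the others (5.64%), where chance alone gives about 1 in 20, and no more is read from them than where they lie. 2WM mouse 2 accounted for 6 of the 15, and EOW mouse 4 for 2. 2WM mouse 2 was lower for Mup20 (2.06, against 5.07 to 5.30 in the other 2WM mice), Mup2 (5.80, against 6.66 to 6.77), C6 (2.32, against 3.30 to 3.45) and Slc47a1 (4.44, against 4.72 to 4.74), and higher for Art3 (0.0045, against -0.16 to -0.14) and for the median level of the proteasome list (3.77, against 3.62 to 3.64). EOW mouse 4 was lower for Ces1e (0.46, against 1.34 to 1.5 in the other EOW mice) and for the median level of the conjugation enzymes (1.60, against 2.40 to 2.53).

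EOW mouse 5 was higher for Cyp7a1 (5.32, against 3.08 to 3.54) and lower for Tsc2 (1.87, against 2.27 to 2.43). EOW mouse 2 was lower for Socs2 (2.82, against 3.50 to 3.67), and EOW mouse 3 was higher for Cmtm6 (2.54, against 2.22 to 2.31). 2WM mouse 4 was higher for Srebf1 (1.81, against 1.31 to 1.32) and lower for the median level of the female-biased genes (0.088, against 0.84 to 0.85), and 2WM mouse 1 was lower for Slc15a2 (-0.90, against -0.75 to -0.73), a gene not above background in 2WM.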

How the results depend on the processing

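Under each setting with an adjusted p of 0.05, no probe was called, and the smallest adjusted p was 0.066 with array weights and 0.0855 without 2WM mouse 2. At an adjusted p under 0.30, 3 probes were counted (1553 with array weights, 325 without EOW mouse 2, 217 without EOW mouse 4 and 119 without 2WM mouse 2). By the methods' criteria without their ANOVA condition 492 were counted, with the limit of the normal z test given above. With no filter on dim probes, 944 were higher and 954 lower in EOW at an unadjusted p under 0.05, whereas 890 were higher with array weights and 327 lower with median centring, which put 63.5% of such probes on the higher side against 47.2% and left 132 probes with EOW below 2WM in every mouse. Leaving out 1 mouse gave 254 to 644 higher and 320 to 664 lower, 537 to 1030 probes without overlap, 254 to 557 with EOW above and 256 to 473 with EOW below, the lowest counts at an unadjusted p coming without 2WM mouse 3. The replicate number as a block gave 507 higher and 494 lower. Deviations of same-numbered mice from their group means correlated at -0.137 to 0.112, and those of other pairs at -0.374 to 0.263. So few pairs cannot show whether equal numbers share a batch. All but 6 of 2238 single-gene values kept their sign: Pck1 was -0.023 with neqc, -0.27 with the replicate block and between -0.27 and 0.44 on leaving out 1 mouse, and Saa4 was 0.016 with array weights and between -0.27 and 0.16 on leaving out 1 mouse. Of 252 list medians 14 changed sign: the acute phase list was at 0.022 with quantile normalization, 0.059 with median centring and -0.062 to 0.21 without 1 mouse, bile acids at 0.0099 with median centring and 0.11 without EOW mouse 4, gluconeogenesis at -0.081 with neqc and -0.17 to 0.059 without 1 mouse, and lipid droplets at 0.0030 with median centring. The cause was not tested. With 5 and 4 mice, a median SE of 0.133 and a median SD of 0.232 between EOW mice against 0.132 between 2WM mice, differences of small size were not detectable.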

Other observations

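Genes of redox defence and of retinoid and mitochondrial metabolism, not described above, also held values of interest. Of 18 tested NRF2 targets and antioxidant enzymes, 13 were lower in EOW, 4 at an unadjusted p under 0.05 and none higher. Txn1, the cytosolic thioredoxin, had levels of 2.30, 1.94, 2.29, 2.47 and 2.49 in EOW against 2.63, 2.84, 2.64 and 2.76 in 2WM, without overlap (-0.42 ± 0.12, limma adjusted p = 0.387). Cat, the catalase, differed by -0.55 ± 0.19 and Gclc, the rate-limiting enzyme of glutathione synthesis, by -0.42 ± 0.18. Of 10 retinoid genes, 1 was higher and 2 lower at that threshold; Rdh16 and Rdh11 differed by -0.49 and -0.63, opposite to Rdh9. Of 33 subunits of complex I, 28 were lower in EOW with a median of -0.11. Lower at an unadjusted p under 0.05 was 1, against 5.23% of all named genes. Without EOW mouse 4 the median was -0.0086 and 19 were lower.

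Of 11 pericentral genes, Rgn, the regucalcin of vitamin C synthesis, had levels of 0.39, 0.61, 0.71, -0.14 and 0.69 in EOW against 1.36, 0.93, 1.27 and 1.39 in 2WM, without overlap (-0.79 ± 0.19, adjusted p = 0.374). Aldh1a1, a retinaldehyde dehydrogenase, differed by -1.11 ± 0.32 (adjusted p = 0.380), and 2WM mouse 2 at 3.88 lay within the EOW range of 2.91 to 4.15. Car3, a carbonic anhydrase of adipocytes and male liver chosen after its values were seen, differed by -2.49 ± 0.81 (adjusted p = 0.416). Of genes furthest from the other 8 mice in EOW mouse 4, the level minus the mean of the others was -7.12 for Cd81, -6.96 for Kng2 and -6.60 for Aqp9, and 5.36 for Cd8b1 and 4.39 for Satb1 (log2).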
